A study of Rattus norvegicus with 19 samples.

Results

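The immediate early response genes are 10 genes, Fos, Fosb, Fosl1, Fosl2, Jun, Junb, Egr1, Ier3, Dusp1 and Zfp36, of the 14217 genes that the platform annotation names. They were chosen by symbol: each probe set (a group of short probes that reads 1 transcript) whose only annotated gene was one of these symbols was taken, which gave 15 probe sets. All 10 genes had at least 1. Expression was measured on 19 Affymetrix arrays of cells from Sprague-Dawley rats. By label, 5 arrays held Leydig cells at the stem stage, 3 at the progenitor, 4 at the immature and 4 at the adult stage, the adult Leydig cell being the testosterone-producing cell of the testis, and 3 arrays held bone stem cells. The strain is the same in all groups. The sources used here give no age, no culture history and no isolation method. They also do not say whether replicates were different animals, so a p-value here reflects the spread of these particular arrays, which may be technical.

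Immediate early genes are switched on within minutes of a growth factor, a hormone or a stress, from proteins the cell already holds, and most of their transcripts decay as fast. Fos and Jun family proteins pair through leucine zippers into AP-1, a dimer that binds DNA and whose make-up decides what it does. Egr1 is a zinc finger activator of the same wave. Dusp1, Zfp36 and Ier3 belong to the feedback arm: Dusp1 removes phosphates from mitogen-activated protein kinases, Zfp36 (tristetraprolin) speeds the decay of messages with AU-rich elements, and Ier3 modulates cell survival. In Leydig cells, luteinizing hormone acting through cyclic AMP induces several of these genes. How the cells were handled before RNA was taken cannot be told apart from stage here.

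The labels were checked against defining markers. Signals of the steroid enzyme gene Cyp17a1 lay between 2758 and 7277 on the 11 progenitor, immature and adult arrays, against 0.5 to 1.8 on the stem Leydig arrays. Cyp11a1, Lhcgr and Insl3 also stayed below 24 on every stem Leydig array, so the stem Leydig cells carry the name without these Leydig markers. Between the progenitor, immature and adult arrays, Cyp17a1, Lhcgr and Insl3 signals overlapped. Cyp11a1 was higher on the adult arrays (3470 to 5525) than on the progenitor (1899 to 2722) or immature arrays (1758 to 2506). These markers thus did not separate the progenitor from the immature label. Other Leydig markers, Nr5a1 and Star, were higher in stem Leydig than in bone stem cells, and Hsd3b1 was lower. Nr5a1 averaged 77.4 in stem Leydig and 8.2 in bone stem cells. The mesenchymal surface marker Thy1 was at 1773 to 2379 in stem Leydig and 2890.0 to 3469 in bone stem cells. The leukocyte antigen gene Ptprc read 226 to 418 on the bone stem arrays, against 6.9 to 16.5 on the stem Leydig arrays. It was not particular to bone stem cells, at 323 to 406 on progenitor, 222 to 630 on immature and 29.3 to 85.1 on adult arrays. Breakdown of RNA raises 3' over 5' probe signal, and for beta-actin that ratio was 6.346 on progenitor replicate 3, against 1.026 to 2.951 on the remaining arrays. On immature replicate 4 it was 1.7, against 1.539 to 1.695 on the other immature arrays, and the Gapdh ratio was 1.524, against 1.134 to 1.177. On adult replicate 2 the beta-actin ratio was 1.511, against 1.591 to 2.294 on the other adult arrays, and the Gapdh ratio 1.325, against 1.095 to 1.22. The bone stem arrays had beta-actin ratios of 2.384 to 2.951 and Gapdh ratios of 1.303 to 1.334. On the stem Leydig arrays these were lower without overlap, at 1.026 to 1.836 and 1.06 to 1.132. Apart from replicate 3 at 1.836, the stem Leydig beta-actin ratios (1.026 to 1.216) also lay below those of every later Leydig array (1.285 to 6.346). Gapdh ratios were 1.065 to 1.857 on the later Leydig arrays, the highest on progenitor replicate 3. The part of these differences in stem Leydig over bone stem, or in the later stages over stem Leydig, was not tested. Arrays within a group lay closest for 2 pairs: bone stem replicates 2 and 3 differed by 0.071 and immature replicates 2 and 3 by 0.098 (median absolute log2 difference over 7761 probe sets). The labels do not say if either pair came from 1 RNA.

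Start sites of these genes are known for binding the factors that make the response fast: serum response factor at the CArG box, CREB at the cyclic AMP response element, and Egr proteins at their own GC-rich site. A RefSeq table of promoters (build GRCr8, 250 bases before to 50 after the start of each gene) held 7 of the 10 genes, Fosb, Fosl1, Fosl2, Junb, Egr1, Dusp1 and Zfp36. These windows were searched on both strands for the CArG box, the cyclic AMP response element TGACGTCA, the AP-1 site TGACTCA and the Egr site GCGNGGGCG. The 3 promoters printed here are shown because they hold a CArG box or a cyclic AMP response element. Capitals mark the matches.
Egr1 (GRCr8 chr18:26736828-26737127, plus strand): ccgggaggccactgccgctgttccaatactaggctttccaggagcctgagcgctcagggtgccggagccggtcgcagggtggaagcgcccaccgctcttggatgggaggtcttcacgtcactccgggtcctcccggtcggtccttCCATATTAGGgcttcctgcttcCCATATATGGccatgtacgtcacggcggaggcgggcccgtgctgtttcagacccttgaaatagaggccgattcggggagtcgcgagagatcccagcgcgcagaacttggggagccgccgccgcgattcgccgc
Zfp36 (GRCr8 chr1:92799059-92799358, minus strand): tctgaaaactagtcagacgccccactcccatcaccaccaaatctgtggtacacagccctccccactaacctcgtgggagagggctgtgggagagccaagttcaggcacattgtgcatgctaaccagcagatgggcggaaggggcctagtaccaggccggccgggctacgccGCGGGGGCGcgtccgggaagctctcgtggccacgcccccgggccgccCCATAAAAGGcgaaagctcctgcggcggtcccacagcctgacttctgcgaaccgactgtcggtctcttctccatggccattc
Dusp1 (GRCr8 chr10:17184603-17184902, plus strand): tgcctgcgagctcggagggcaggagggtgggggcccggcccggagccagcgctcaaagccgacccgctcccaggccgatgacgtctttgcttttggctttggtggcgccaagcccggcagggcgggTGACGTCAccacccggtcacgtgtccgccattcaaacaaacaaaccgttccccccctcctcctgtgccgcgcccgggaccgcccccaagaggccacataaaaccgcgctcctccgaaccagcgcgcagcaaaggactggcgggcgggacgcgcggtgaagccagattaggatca

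The Egr1 window held CArG boxes starting 105 and 83 bases before the start site. The Zfp36 window held 1 at 32 bases before it, and an Egr site at 79 bases. Of 27457 gene promoters of the same length, 1.64% held a CArG box. Dusp1 held a cyclic AMP response element 124 bases before its start, as did 1.91% of all promoters. Fosl2 held 2 Egr sites, a match found in 5.29% of promoters. The AP-1 site was in 0 of the 7 windows and in 4.53% of all promoters. No match says only that these letters are not in this window.

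Levels are given as MAS5 signals on the linear scale that the authors deposited, 1 per probe set and array, and are compared between groups only within a probe set. Changes are differences of log2(signal + 16) with their standard error (SE) from one limma model of all 19 arrays, and a gene is called at an adjusted p under 0.05 (Benjamini-Hochberg over 31042 probe sets). A gene is read by its brightest probe set. In bulk samples, fewer cells of a type and less RNA per cell cannot be told apart.

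The 10 genes did not move as one block across the lineage. The plot of signals by array shows 3 patterns. Jun, Junb, Zfp36 and Fosb were higher in progenitor and adult cells than in stem Leydig cells, Fosl1 was lower, and Ier3 and Dusp1 had their lowest means in progenitor and immature cells.

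**Figure D1:**
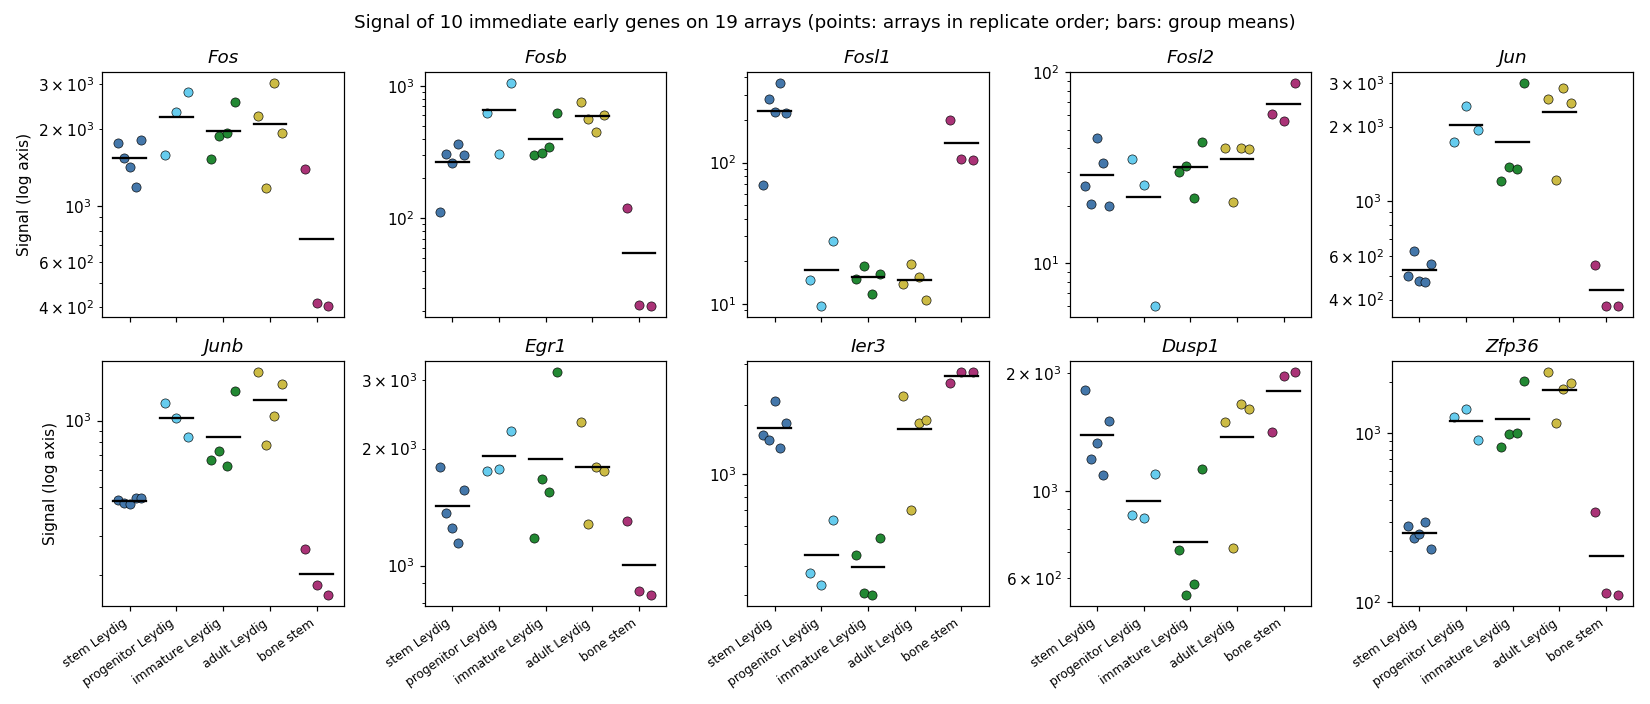
Signal of each of the 10 genes (log axis) on every array, by group. Points are arrays in replicate order and bars are group means. The Jun, Junb and Zfp36 arrays of stem Leydig cells all lie below those of the 3 later stages, those of Fosl1 all lie above them, and immature replicate 4 and adult replicate 2 stand off from their groups in several panels.

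Jun (probe set 1389528_s_at) encodes the central Jun partner of AP-1. Its signal was 498, 626, 476, 471 and 556 in stem Leydig cells, 1731, 2430.0 and 1938 in progenitor cells, 1205, 1372, 1342 and 3000.1 in immature cells, and 2585, 1214, 2853 and 2497 in adult cells. Every later array was above every stem Leydig array, while the 3 later stages overlapped. Jun averaged 2033 ± 359 in progenitor cells and 525 ± 65.8 in stem cells (SD, n = 3 and 5), a 3.87-fold difference. The log2 change was 1.91 ± 0.27 for progenitor over stem (limma adjusted p = 9.12e-06) and 2.03 ± 0.25 for adult over stem (adjusted p = 8.47e-07). The other Jun probe sets also rose, by 1.97 ± 0.25 (1369788_s_at) and 2.62 ± 0.31 (1374404_at) for progenitor over stem and by 1.35 ± 0.23 and 3.03 ± 0.28 for adult over stem. They disagree in adult over immature, where 1374404_at was called (0.91 ± 0.30, adjusted p = 0.0329) and 1369788_s_at gave -0.02 ± 0.24. In bone stem cells Jun read 553, 378 and 378, and stem Leydig over bone stem gave 0.27 ± 0.27 (adjusted p = 0.589). The other probe sets differed in sign there, at -0.39 ± 0.25 (1369788_s_at) and 0.65 ± 0.31 (1374404_at), and neither passed.

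Junb (1387788_at), a Jun relative that often restrains Jun, had stem Leydig values in a narrow range, at 436, 426, 417, 448 and 444. It read 1200.5, 1026 and 841 in progenitor cells, 663, 725, 621 and 1357 in immature cells, and 1656, 772, 1044 and 1462 in adult cells. All 11 later arrays were above the 5 stem arrays. The log2 change was 1.19 ± 0.24 for progenitor over stem (adjusted p = 0.000439) and 1.41 ± 0.22 for adult over stem (adjusted p = 1.76e-05). Bone stem cells were lower still, at 263, 181 and 163, and stem Leydig over bone stem was 1.07 ± 0.24 (adjusted p = 0.00281), with no overlap between these groups.

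The Fos family split. Fos itself (1375043_at) read 1756, 1535, 1422, 1181 and 1808 in stem Leydig cells, 1576, 2326 and 2791 in progenitor cells, 1532, 1870.1, 1926 and 2560.0 in immature cells, and 2242, 1176, 3029 and 1921 in adult cells. The 4 Leydig stages overlapped throughout. No Leydig comparison was called: progenitor over stem was 0.51 ± 0.33 (adjusted p = 0.258) and adult over stem 0.38 ± 0.30 (adjusted p = 0.36). Bone stem cells read 1392, 415 and 406, so replicate 1 alone reached into the stem Leydig range. For Fos, stem Leydig over bone stem was 1.28 ± 0.33 (adjusted p = 0.00931). That call was lost without bone stem replicate 2 (adjusted p = 0.0905), without replicate 3 (0.0938) and with this close pair averaged (0.107). A second Fos probe set (1371283_at) stayed at or below 29.9 on every array and was called in no comparison.

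Fosb (1373759_at), a Fos relative induced in the same wave, read 113, 306, 262, 361 and 299.6 in stem Leydig cells, 629, 308 and 1052 in progenitor cells, 302, 314, 343 and 622 in immature cells, and 759.6, 561, 445 and 599 in adult cells. Adult and stem Leydig arrays did not overlap, whereas the progenitor arrays reached into the stem range. Adult over stem was 1.16 ± 0.38 (adjusted p = 0.0182), a call lost without adult replicate 1 (adjusted p = 0.0594) or stem replicate 1 (0.0578). Progenitor over stem was 1.18 ± 0.42 (adjusted p = 0.0302). It was lost without progenitor replicate 1 (adjusted p = 0.0804), progenitor replicate 3 (0.219) or stem replicate 1 (0.079), without progenitor replicate 3 and immature replicate 4 together (0.198), with median centring (0.0549) and with array quality weights (0.0761). Bone stem cells read 119, 22 and 21.9, and stem Leydig over bone stem was 2.21 ± 0.42 (adjusted p = 0.000617), with stem replicate 1 at 113 inside the bone stem range.

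Fosl1 (1368489_at) encodes Fra-1, a late-acting Fos relative without a strong activation domain. It was the member with the largest fall. Signals were 69.4, 279, 226, 365 and 223 in stem Leydig cells. Progenitor cells read 14.8, 9.7 and 27.9, immature cells 15, 18.5, 11.8 and 16.3, adult cells 13.7, 19.1, 15.4 and 10.6, and bone stem cells 201, 106 and 104. No later Leydig array reached 28, and no stem array of either kind fell below 69. The log2 change was -2.78 ± 0.33 for progenitor over stem (adjusted p = 9.86e-07) and -2.87 ± 0.30 for adult over stem (adjusted p = 1.04e-07). Because the later signals are near the added 16, these values understate the fold. Stem Leydig over bone stem was 0.60 ± 0.33 (adjusted p = 0.246) and 0.95 without stem replicate 1 (adjusted p = 0.00563).

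Fosl2, which encodes Fra-2, was dim, with no signal above 88 on any array. Its brighter probe set (1383860_at) averaged 28.95 ± 10.8 in stem Leydig, 22.3 ± 14.97 in progenitor, 31.9 ± 8.62 in immature, 35.2 ± 9.48 in adult and 67.99 ± 17.5 in bone stem cells (SD). It was called only in stem Leydig over bone stem (-0.91 ± 0.25, adjusted p = 0.014), where the other probe set (1387530_a_at) gave 0.02 ± 0.15. That call was lost without bone stem replicate 3 (adjusted p = 0.105), with the closest pairs averaged (0.055) and with both probe sets averaged (0.057). That other probe set rose in adult over stem cells (0.60 ± 0.14, adjusted p = 0.00148), where the brighter one gave 0.20 ± 0.23. The 2 probe sets therefore disagree on where Fosl2 differs.

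Egr1 (1368321_at) read 1796, 1365, 1247, 1142 and 1564 in stem Leydig cells, 1747, 1774 and 2218 in progenitor cells, 1181, 1666, 1549.9 and 3144 in immature cells, and 2337, 1282, 1788 and 1749 in adult cells. All 4 stages overlapped, and immature replicate 4 was the highest array. No comparison called it: progenitor over stem was 0.43 ± 0.25 (adjusted p = 0.193), adult over stem 0.31 ± 0.23 (adjusted p = 0.302) and stem Leydig over bone stem 0.51 ± 0.25 (adjusted p = 0.182). After quantile normalization progenitor over stem (adjusted p = 0.041) and stem Leydig over bone stem (0.0341) were called, and the second also with array quality weights (0.00238). Bone stem cells read 1306, 862 and 841.

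Zfp36 (1387870_at) made the largest rise of the 10, each read by its brightest probe set. Its signal was 284, 240.0, 255, 299 and 208 in stem Leydig cells, 1239, 1385 and 916 in progenitor cells, 830.3, 994, 1003 and 2022 in immature cells, and 2292, 1150.1, 1816 and 1969 in adult cells. Every later array was above every stem array. Adult cells averaged 1807 ± 481, against 257 ± 36.2 in stem Leydig cells (SD, n = 4 and 5), a 7.03-fold difference and a log2 change of 2.71 ± 0.28 (adjusted p = 8.85e-08). Progenitor over stem was 2.12 ± 0.31 (adjusted p = 1.27e-05). Bone stem cells read 341, 113 and 111, a group that straddles the stem Leydig values, and stem Leydig over bone stem was 0.59 ± 0.31 (adjusted p = 0.219). Without bone stem replicate 1 it was 1.08 ± 0.28 (adjusted p = 0.00992).

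Ier3 (1388587_at) followed a different course. It read 1481, 1416, 2069.7, 1306 and 1672 in stem Leydig cells, 374, 331 and 635 in progenitor cells, 446, 306, 301 and 532 in immature cells, and 2178, 699.5, 1664 and 1722 in adult cells. The progenitor and immature arrays all lay below every stem and adult array. Progenitor over stem was -1.83 ± 0.28 (adjusted p = 2.64e-05) and adult over immature 1.87 ± 0.27 (adjusted p = 4.25e-05). Adult over stem was -0.11 ± 0.26 (adjusted p = 0.771). Bone stem cells had the highest signals, at 2484, 2770.5 and 2766, above every stem Leydig array. Stem Leydig over bone stem was -0.76 ± 0.28 and did not pass (adjusted p = 0.0681). It passed without stem replicate 3 (adjusted p = 0.0437), without progenitor replicate 3 and immature replicate 4 together (0.0428), without the lowest 40% of probe sets (0.0459), in a fit of these groups alone (0.00789) and with array quality weights (0.00114).

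Dusp1 (1368146_at) had a similar order of means. It read 1815, 1209, 1329, 1097 and 1511 in stem Leydig cells, 871, 854 and 1105 in progenitor cells, 705, 543, 577 and 1142 in immature cells, and 1504, 714, 1665 and 1619.8 in adult cells. Adult replicate 2 and immature replicate 4 are the arrays that make the last 2 groups overlap. Adult over immature was 0.87 ± 0.25 (adjusted p = 0.0167), and the dimmer probe set (1368147_at) gave 1.48 ± 0.41 (adjusted p = 0.0118). For the brighter probe set that call was lost without adult replicate 1 (adjusted p = 0.0509), adult replicate 3 (0.0639), adult replicate 4 (0.063), immature replicate 2 (0.0594) or immature replicate 3 (0.055), with the closest pairs averaged (0.0667) and when only these groups were fitted (0.0699). The log2 change was 0.87 in the last of these, as in the fit of all groups, and 0.74 to 0.80 in the others. Progenitor over stem was -0.54 ± 0.26 (adjusted p = 0.113) by the brighter and -1.28 ± 0.42 (adjusted p = 0.0206) by the dimmer probe set. It was called with both averaged (-0.91, adjusted p = 0.0188), with median centring (0.0375), in a fit of these groups alone (0.0369) and with array quality weights (0.0208). Bone stem cells read 1419, 1974 and 2014. There the probe sets differ in sign, at -0.37 ± 0.26 and 1.10 ± 0.42 for stem Leydig over bone stem, and neither passed.

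Counted by comparison, progenitor over stem had 4 of the 10 higher (Jun, Junb, Zfp36, Fosb) and 2 lower (Fosl1, Ier3), where limma called 36.7% of all probe sets, 22% higher and 14.7% lower. The median log2 change of the 10 was 0.47, against 0.08 over all probe sets. Adult over stem called 4 higher (Jun, Junb, Zfp36, Fosb) and 1 lower (Fosl1), where 41.8% of all probe sets were called, 21.3% higher and 20.5% lower, with a median of 0.34 against 0.02. The 2 comparisons share the stem Leydig arrays. In stem Leydig over bone stem, 3 were higher (Fos, Fosb, Junb) and 1, Fosl2, was lower, beside 18.5% of all probe sets, 9.79% higher and 8.73% lower, with a median of 0.55 against 0.05. Without bone stem replicate 3 the count was 2, Fosb and Junb. The shares over all probe sets, here and below, include dim ones: 29.1% to 47.3% of probe sets on an array lay under 16. Without the lowest 40% of probe sets, 10049 were called in progenitor over stem and 11516 in adult over stem, against 11385 and 12978. In adult over immature 6540 were called, against 6547, and in stem Leydig over bone stem 5798, against 5749. The share called is therefore larger among the brighter probe sets in these comparisons. The shares over all probe sets are thus a low background for the members, most of which are bright. Whether the member counts exceed the share among brighter probe sets was not tested.

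Immature over progenitor called 0 of the 10 in limma, and 0 had an unadjusted p under 0.05, where 1.3% of all probe sets were called, 0.876% higher and 0.425% lower. Their median log2 change was -0.16, against 0.01 over all probe sets, and the widest estimate was that of Fosb at -0.62 ± 0.43. Leaving out any single one of the 4 immature or 3 progenitor arrays left the count at 0.

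Adult over immature called 2 higher, Ier3 and Dusp1, where 21.1% of all probe sets were called, 8.05% higher and 13.0% lower. The median was 0.50, against -0.07 over all probe sets. This count rests on single arrays. Without immature replicate 4 it was 5, the additions being Jun (0.73 ± 0.22, adjusted p = 0.0291), Junb (0.81 ± 0.20, adjusted p = 0.00814) and Zfp36 (0.89 ± 0.28, adjusted p = 0.0361). With all arrays these genes gave 0.43 ± 0.26, 0.56 ± 0.23 and 0.62 ± 0.30 and did not pass, although Junb did after median centring (adjusted p = 0.0398). Without adult replicate 2 the count was 4, with Jun and Junb added. It was 1, Ier3 alone, without adult replicate 1, 3 or 4 or immature replicate 2 or 3, and 2 without immature replicate 1.

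**Figure D2:**
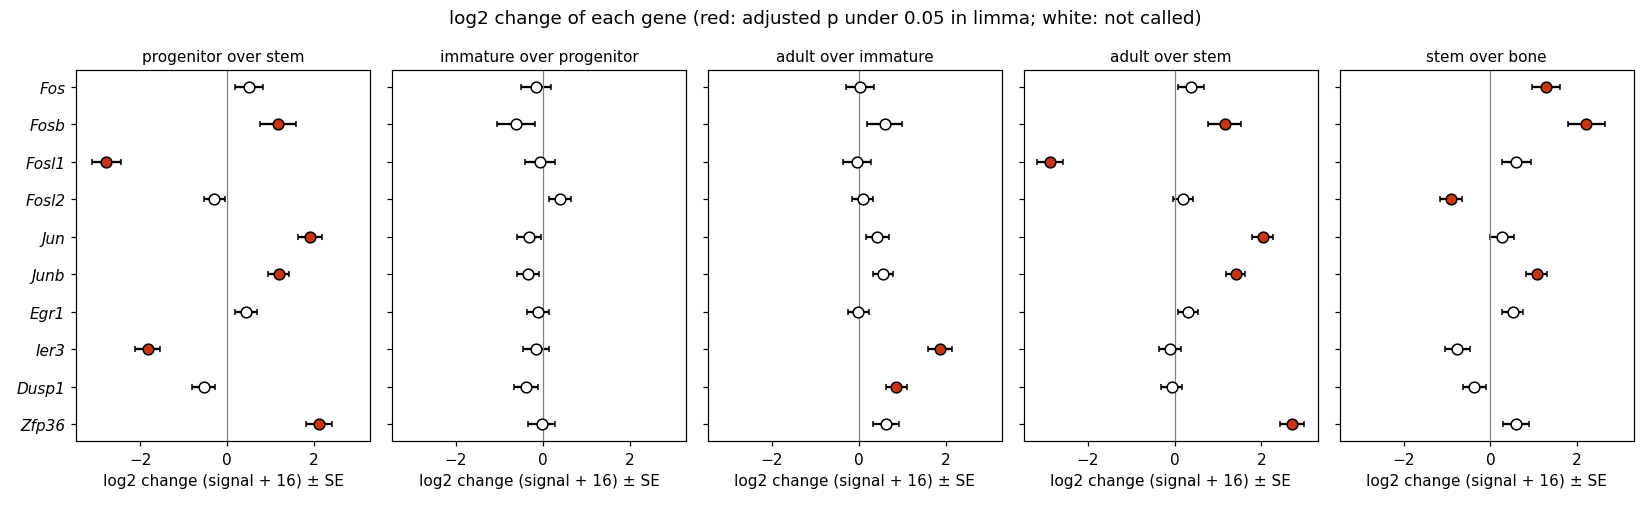
log2 change (signal + 16) of the 10 genes in each of the 5 comparisons, with SE bars. Red points passed an adjusted p of 0.05 in limma. Fosl1 lies near -2.8 in both comparisons with stem Leydig cells, Zfp36 above 2, and no point is red in immature over progenitor.

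Single arrays shifted many of the 10 genes together within a group. Immature replicate 4 had the highest signal of its group for 9 of 10, all but Fosl1. Over all probe sets this array was highest in 26.2% of cases. The median difference of the 10 from the mean of the other 3 immature arrays was 0.91 on the log2 scale, against -0.04 over all probe sets. Jun on that array was at 3000.1, against 1205 to 1372 on the others, and Zfp36 at 2022, against 830.3 to 1003.

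Adult replicate 2 ran the other way. It had the lowest signal of its group for 8 of 10, all but Fosb and Fosl1, where 22.3% of all probe sets were lowest. The median difference from the other adult arrays was -0.80, against 0.06 over all probe sets. Ier3 on it was at 699.5, against 1664 to 2178, and Dusp1 at 714, against 1504 to 1665. Adult replicate 1 was highest for 6 of 10 (21.0% of all probe sets).

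Bone stem replicate 1 was highest of 3 for 7 genes, where 46.5% of all probe sets were highest. Fosb on it was at 119, against 22 and 21.9, Fos at 1392, against 415 and 406, and Zfp36 at 341, against 113 and 111, while Ier3 and Dusp1 were lowest there. In stem Leydig cells no array led: the mean deviation of the 10 lay between -0.16 and 0.06. Stem replicate 1 was low for Fosl1 and Fosb alone, at 69.4 and 113. Among progenitor arrays, replicate 3 was highest for 6 of 10, with 48.5% of all probe sets highest there.

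**Figure D3:**
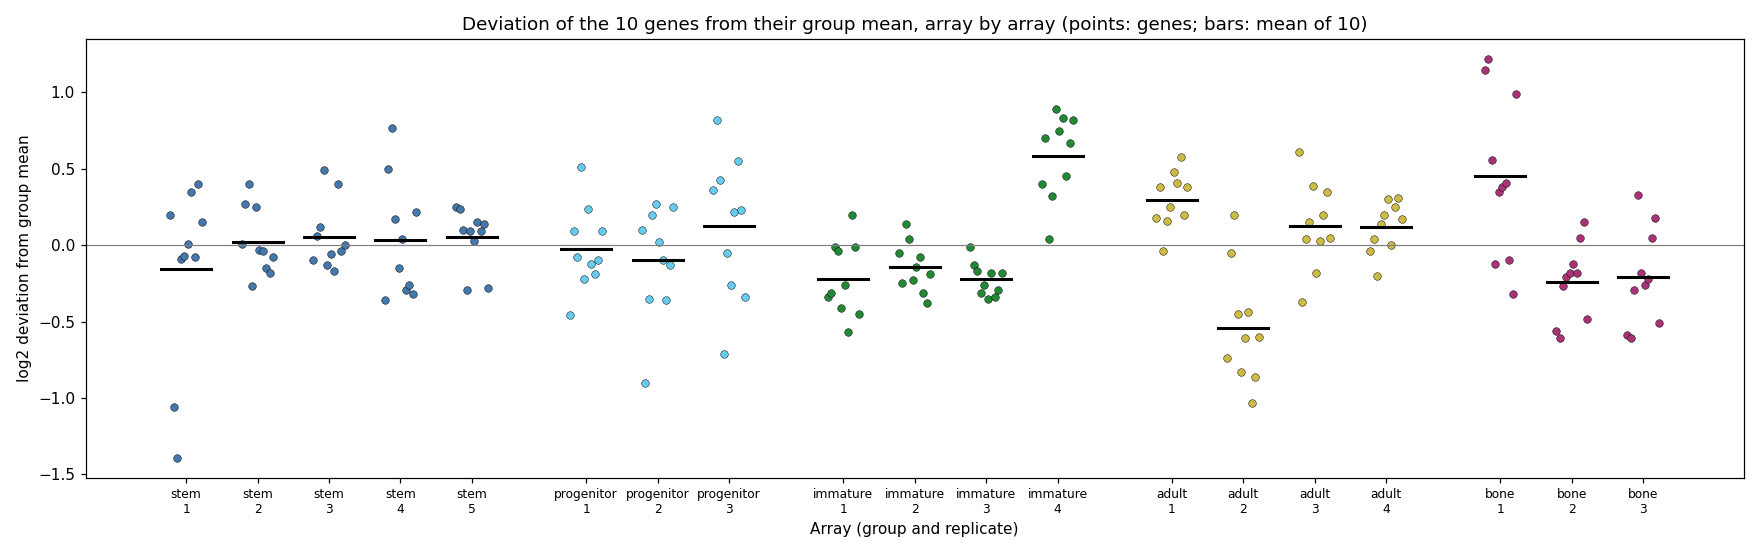
Deviation of each of the 10 genes from its group mean, in log2(signal + 16), for every array. Points are genes and bars the mean of 10. The bar of immature replicate 4 is at 0.59, that of adult replicate 2 at -0.54 and that of bone stem replicate 1 at 0.45.

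Within groups these genes varied more than most. The pooled within-group SD on the log2 scale was 0.36 to 0.66, lowest for Junb and highest for Fosb, against a median of 0.22 over 7109 genes at or above the median signal. Each of the 10 had a larger SD than 89.1% or more of those genes. Fosl2 (SD 0.37) is itself below that median signal, so its spread is set against brighter genes. Across the 19 arrays, and after group means were removed, Jun correlated at 0.83 with the mean of the other 9 members, Junb at 0.81, Zfp36 at 0.77 and Egr1 at 0.76. Fosl1 (0.14) and Fosl2 (0.16) followed the others least. These are descriptions: all points share the arrays and their scaling. Single pairs ran from -0.42 for Fosl1 with Dusp1 to 0.85 for Junb with Zfp36, and Ier3 with Dusp1 reached 0.81.

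Genes outside the 10 whose deviations were most like their mean were sought among 7100 genes at or above the median signal. The closest was Ppp1r15a (r = 0.92 over 19 arrays), a stress-induced phosphatase subunit gene. It read 578, 285, 458 and 489 in adult cells and 204, 228, 226 and 499.5 in immature cells, so adult replicate 2 was again the low and immature replicate 4 the high array. Next came the chemokine gene Cxcl1 (0.90), Mat2a (0.89), which makes S-adenosylmethionine, the Egr1 relative Egr2 (0.88), the endothelial adhesion gene Esam (0.87), Cxcl10 (0.87), Arhgap11a (0.87) and the interferon-response factor gene Irf1 (0.86). Egr2 was at 353 on immature replicate 4, against 45.5 to 67.4 on the other immature arrays. Of these 8, Ppp1r15a and Egr2 are in the list of other immediate early genes described next, Cxcl1 and Cxcl10 among the AU-rich messages, and Esam among the endothelial markers. The median r over all 7100 genes was 0.03.

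A list of 45 other immediate early genes, 44 of them measured, was set beside the 10. On immature replicate 4, 31 of 44 were at the highest signal of their group, and on adult replicate 2, 33 of 44 at the lowest, beside the 26.2% and 22.3% of all probe sets given above. Of 14 heat shock genes, 8 were highest on immature replicate 4 and 10 lowest on adult replicate 2. On bone stem replicate 1 the mean deviation was 0.05 for the other immediate early genes and -0.08 for the heat shock genes, against 0.45 for the 10. Summed leukocyte marker signals (15 of 15 markers measured) were 6621 on immature replicate 4, against 2883 to 4587 on the other immature arrays. On adult replicate 2 they were 3116, inside the range of 1801 to 4528 of the other adult arrays. On bone stem replicate 1 they were 19786, against 15801 and 15355. The endothelial marker Esam, picked above by its likeness, was at 98.2 on immature replicate 4, against 31.9 to 44.9 on the other immature arrays. On adult replicate 2 it was at 38.1, against 118.5 to 319.0 on the other adult arrays. The part of leukocytes, of endothelial cells or of RNA breakdown in these shifts was not tested.

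**Figure D4:**
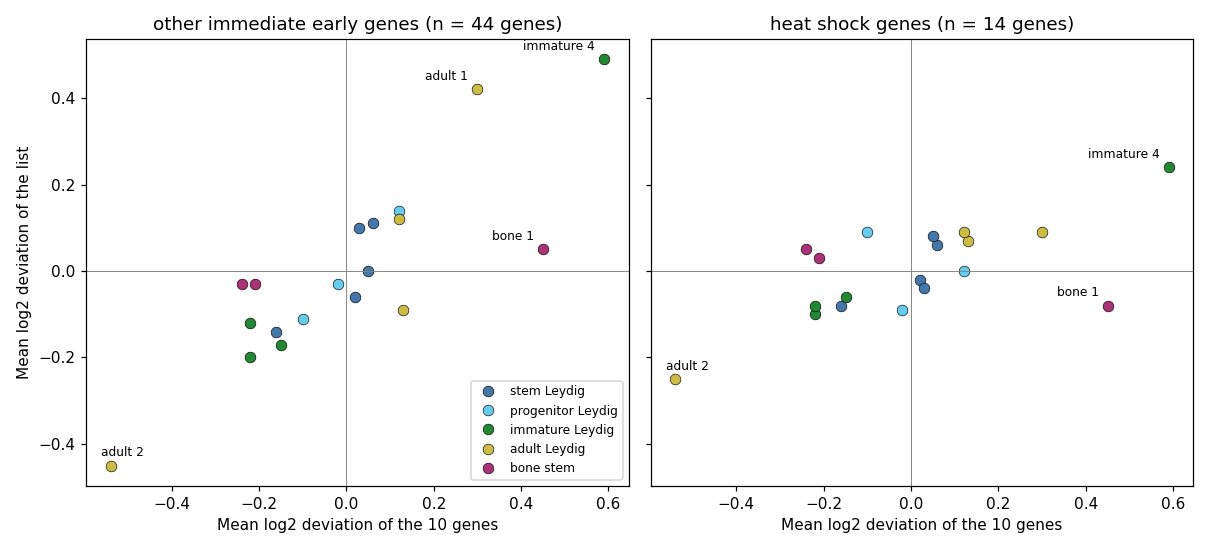
Mean log2 deviation from the group mean on each of 19 arrays, with the 10 genes on the x axis and 44 other immediate early genes (left) or 14 heat shock genes (right) on the y axis. Immature replicate 4 is at 0.49 and 0.24 on the y axes, adult replicate 2 at -0.45 and -0.25.

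Between stages, the other immediate early genes went both ways. Counts in this list and those below are to be read beside the shares of all probe sets called, given above by comparison. A count near those shares does not set a list apart. Whether any list differed from them was not tested. In progenitor over stem, 8 of 44 were higher and 12 lower, with Ccn2, a matrix-linked growth factor gene, at -3.92 ± 0.32 and the prostaglandin synthase gene Ptgs2 at -3.16 ± 0.29. In adult over stem 13 were higher and 13 lower, with Ccn2 at -6.03 ± 0.29. Immature over progenitor called 0. In adult over immature 10 were higher and 4 lower, among them Nfkbiz (2.29 ± 0.40), a regulator of NF-kappaB, and Ccn2 (-2.0 ± 0.31). In stem Leydig over bone stem 9 were higher and 2 lower, with the clock gene Per1 at 1.30 ± 0.19 and Gadd45g at -1.44 ± 0.25. List medians were -0.08, -0.29, -0.13, 0.03 and 0.35 in that order.

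Partners and relatives of AP-1 (14 of 16 measured; the list shares genes with the one above) gave 4 higher and 1 lower in progenitor over stem. The Jun relative Jund was at 1614 ± 156 in progenitor and 850.4 ± 139 in stem Leydig cells, a log2 change of 0.92 ± 0.15 (adjusted p = 6.45e-05), smaller than that of Jun. The cyclic AMP-responsive gene Crem rose by 1.86 ± 0.29. Adult over stem called 2 higher and 4 lower, with Jund at 1.22 ± 0.14 and Maff at -1.74 ± 0.26. Adult over immature called 1 higher and 2 lower, with Maff at -1.06 ± 0.27 and Crem at -0.98 ± 0.28. In stem Leydig over bone stem 1 was higher and 3 were lower, with Batf at -1.72 ± 0.21 and Maf at -1.49 ± 0.18. No partner was called in immature over progenitor (0 of 14).

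Upstream kinases and serum response factors (14 of 20 measured) gave 4 higher and 5 lower in progenitor over stem, 4 and 7 in adult over stem, 0 and 4 in adult over immature and 1 and 1 in stem Leydig over bone stem. The kinase gene Map2k1, a step between growth factor receptors and these genes, fell in progenitor (-1.49 ± 0.11) and adult (-1.98 ± 0.10) over stem cells, and Elk3 in adult over stem (-3.29 ± 0.23). Rps6ka3 rose in progenitor over stem (1.31 ± 0.15). Egfr (-1.75 ± 0.27) and Mapk8 (-0.77 ± 0.16) fell in adult over immature. Map2k1 was higher (0.58 ± 0.11) and Map3k1 lower (-0.79 ± 0.18) in stem Leydig over bone stem. Of these 14, 0 were called in immature over progenitor.

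Feedback phosphatases and Sprouty genes (11 of 14 measured), which with Dusp1 damp kinase signalling, gave 1 higher and 6 lower in progenitor over stem and 2 and 7 in adult over stem, at a median of -1.76 in the second. Dusp14 (-3.82 ± 0.18) and Dusp6 (-2.75 ± 0.25) fell in progenitor over stem, and Dusp14 (-2.76 ± 0.17) and Spry4 (-2.52 ± 0.20) in adult over stem. Adult over immature called 2 and 2, with Spry2 at -1.69 ± 0.30 and Dusp14 at 0.92 ± 0.18. Against bone stem cells, stem Leydig cells had 5 higher and 0 lower, with Spry2 at 1.86 ± 0.31 and Dusp14 at 1.32 ± 0.18. In immature over progenitor 0 of 11 were called. The difference between Dusp1 and these genes was not tested.

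Relatives of Zfp36 and AU-rich messages (17 of 17 measured) gave 5 higher and 5 lower in progenitor over stem and 6 and 5 in adult over stem. Zfp36l1, a paralog of Zfp36, rose by 1.33 ± 0.18 and 1.44 ± 0.17 in these, and Ptgs2 was at -3.16 in both. Adult over immature called 3 higher and 1 lower, with Cxcl10 at 1.99 ± 0.42 and Cxcl1 at 1.87 ± 0.47. For stem Leydig over bone stem the counts were 3 and 3, with Tnf at -1.78 ± 0.24 and Il1b at -1.63 ± 0.26. Between immature and progenitor cells 0 of 17 were called.

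Known AP-1 targets (18 of 19 measured) gave 3 higher and 11 lower in progenitor over stem and 2 and 11 in adult over stem, with medians of -1.38 and -1.23. The osteopontin gene Spp1 (-5.35 ± 0.29) and the cyclin gene Ccnd1 (-3.94 ± 0.21) fell in progenitor over stem. The urokinase receptor gene Plaur (-3.24 ± 0.20) and Ccnd1 (-2.78 ± 0.19) fell in adult over stem. Adult over immature called 3 and 3, with Hmox1 at 1.77 ± 0.16 and Ezr at -1.88 ± 0.20. Stem Leydig over bone stem called 2 and 6, with Hmox1 at -2.06 ± 0.17 and Mmp13 at -2.57 ± 0.42. The step to immature over progenitor had 0 of 18. In both comparisons with stem Leydig cells, Fosl1 was lower, and Jun, Junb and Fosb were higher. Mt1 was the only target called higher in both, at 2.16 ± 0.16 and 2.0 ± 0.14. Any link between the members and these targets was not tested.

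Heat shock genes (14 of 17 measured) gave 3 higher and 3 lower in progenitor over stem and 3 and 4 in adult over stem, with the small chaperone genes Hspb1 (-4.22 ± 0.35 and -4.48 ± 0.32) and Hspb8 (-3.52 ± 0.29 and -2.71 ± 0.26) lower in both. Adult over immature called 2 higher and 0 lower, Bag3 (1.27 ± 0.19) and Hspb8 (1.07 ± 0.28). Stem Leydig over bone stem called 2 higher, Hspa4 (0.58 ± 0.15) and Hspb8 (1.0 ± 0.29), and 0 lower. Immature over progenitor called 0 of 14.

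Markers of other cells moved with the groups. Summed leukocyte signals were 765 to 1261 in stem Leydig, 5059 to 6619 in progenitor, 2883 to 6621 in immature, 1801 to 4528 in adult and 15355 to 19786 in bone stem cells, with 9 of 15 markers higher and 1 lower in progenitor over stem and 0 higher and 13 lower in stem Leydig over bone stem. The bone stem arrays had the highest leukocyte sums of the 5 groups. By the brightest probe sets, their means were the lowest for Jun, Junb, Fos, Fosb, Egr1 and Zfp36 and the highest for Ier3, Dusp1 and Fosl2. Fosl1 had its highest mean in stem Leydig cells. Other probe sets differed: Jun by 1369788_s_at was lower in stem Leydig than in bone stem cells. Dusp1 by 1368147_at and Fosl2 by 1387530_a_at were not highest in bone stem cells. Endothelial sums (9 of 10 measured) were 603 to 842, 1087 to 2151, 336 to 926, 649 to 3149 and 213 to 393 in the same order, with 8 of 9 higher in adult over immature. Smooth muscle sums (8 of 8 measured) were 753 to 2272 over the 3 later stages, against 6534 to 13989 in stem Leydig and 9474 to 13476 in bone stem cells, the groups in which Fosl1 was high. Erythroid sums (5 of 9 measured) were 3462 to 5394 in progenitor and 10.6 to 55.4 in stem Leydig cells. Germ cell sums (8 of 10 measured) were 1351 to 3122 in adult and 421 to 1051 in immature cells. Sertoli sums (5 of 8 measured) were 1406 to 2420.2 in adult and 860.4 to 1124 in immature cells. Mesenchymal precursor sums (7 of 7 measured) lay between 4666 and 7822 on all arrays, although 3 of the 7 were higher and 4 lower in both progenitor and adult over stem cells. Vcam1 gave 4.65 ± 0.20 and 6.34 ± 0.18 in these, and Thy1 gave -4.21 ± 0.25 and -5.37 ± 0.23. Leydig sums (7 of 7) were 11938 to 31592 over the later stages and 354 to 1587 in stem Leydig cells. In stem Leydig over bone stem 2 of the 7 were higher, Star (3.03 ± 0.64) and Nr5a1 (1.95 ± 0.12). In that comparison 1, Hsd3b1, was lower (-0.93 ± 0.31). Star was not called in progenitor over stem (0.64 ± 0.64, limma adjusted p = 0.481). No marker list summed to 0 in any group. The part of these cells in the results above was not tested.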

How the data were processed

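Expression was measured in 19 rat samples on Affymetrix arrays from 6 ug of total RNA (per the labels' protocols). Deposited values hold intensities, with 1 linear signal per probe set, which the authors made with MAS5 and GCOS (per the submitters' processing notes, which name no version). Each array was already scaled, with a 2% trimmed mean of 99.99. The array medians ran from 18.9 to 36.6. No detection calls were used, so low signals have no tested floor, and the number of arrays limits the precision.

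Of 31099 probe sets, 57 controls were left out. Platform symbols were used for 20826 probe sets with 1 symbol (436 had several and 9780 none). A gene was read by its probe set with the highest mean. log2(signal + 16) entered limma 3.58.1 (R 4.3.3) with 5 group means, moderated statistics with an intensity trend, and Benjamini-Hochberg adjustment. The model was tested on simulated data. Tables and plots were made with Python 3.11.15, pandas 2.3.3 and matplotlib 3.10.9. The members and lists were chosen with earlier results of these data known. Named genes were the 10 members, the 2 called genes with the smallest adjusted p of each list and comparison, the 8 most like the members' mean deviation, and markers for the label check; marker lists are given by sums. Alternatives were 2 scalings, pseudocounts of 1 and 64, a filter on the lowest 40%, no trend, array weights, fewer groups, a replicate block, averaged probe sets and leaving out each array. Leaving out 2 arrays together and averaging the closest pairs were chosen after seeing the data. Replicate numbers were not taken as pairs, since the labels state no pairing.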

Additional observations from a re-analysis of the deposited data

Results flagged for a closer look

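Among 30 sets of 4 or 5 arrays (each of the 10 genes in stem Leydig, immature and adult cells), 6 held an array far from the others by Dixon's 95% criterion, which chance meets in about 1 set of 20. On immature replicate 4 these were the high signals of Jun (3000.1, a gap of 0.907 of the group's range), Fosb (621.6, 0.871), Junb (1357, 0.859) and Zfp36 (2022, 0.855). On adult replicate 2 they were the low signals of Fosl2 (21, 0.973) and Dusp1 (714, 0.831). The sets are not independent, since they share arrays. Sets of 3 arrays were not examined.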

How the results depend on the processing

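Of the members' 50 log2 changes, none of those called changed direction under the alternatives run, although 12 gained and 5 lost a call under at least 1 of them. For adult over immature, 2 of the 10 genes were called. The count was 5 with array quality weights, 5 without progenitor replicate 3 and immature replicate 4, 1 with the closest pairs averaged and 1 when only the 2 groups were fitted; leaving out single arrays of the groups compared gave 1 to 5. For stem Leydig over bone stem, 4 were called, against 10 with array quality weights and 2 with the closest pairs averaged; leaving out single arrays gave 2 to 5. The cause was not tested. Leaving out single arrays gave 5 to 6 members in progenitor over stem, 4 to 5 in adult over stem and 0 in immature over progenitor.

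With the replicate number as a block, 6, 0, 3, 5 and 4 members were called in progenitor over stem, immature over progenitor, adult over immature, adult over stem and stem Leydig over bone stem. The third added Junb (0.56, adjusted p = 0.0468), and no other member's call changed. Deviations of same-numbered arrays correlated from -0.149 to 0.264, and the labels state no pairing, so the numbers were not taken as pairs. These correlations cannot tell if same-numbered arrays shared a source.

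In progenitor over stem, 59.9% of called probe sets were higher at the deposited scale, 49.2% with quantile normalization and 34.3% with median centring, where the overall median shifted by -0.23. In adult over immature it was 38.2%, 48.7% and 65.2%, with a shift of 0.18 under centring. In stem Leydig over bone stem it was 52.9% as deposited and 40.7% after centring. Counts over all probe sets moved by more than 1.5 times for immature over progenitor (404, against 17 when only these groups were fitted, 1456 with array quality weights, 226 when 1 rather than 16 was added, 157 with the closest pairs averaged, 1194 without the 2 arrays, and 147 to 1304 leaving out single arrays). They did so too for stem Leydig over bone stem (5749, against 10996 with array quality weights, 3674 with the pairs averaged, and 3746 to 6320 leaving out single arrays). Fosl1 in the later stages and Fosl2 throughout lay at low signals, which limits their folds. The array-by-array counts were also 9 and 8 of 10 for immature replicate 4 and adult replicate 2 under both other scalings; bone stem replicate 1 had 8 and 7.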

Other observations

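Among the other immediate early genes, 3 called ones were picked after their values were seen, as close relatives in function of the 10. Ier2, named like Ier3 for its early response, rose in progenitor (1.34 ± 0.28, limma adjusted p = 0.000753) and adult (1.13 ± 0.26, adjusted p = 0.00124) over stem Leydig cells, where Ier3 was lower in the first comparison and not called in the second. Atf3, a stress-induced partner of Jun proteins, rose in adult over immature cells (2.34 ± 0.73, adjusted p = 0.0269). Nr4a1, a nuclear receptor induced by luteinizing hormone in Leydig cells, fell in the same comparison (-1.16 ± 0.36, adjusted p = 0.0271). Its relatives Nr4a2 (-0.2 ± 0.37, adjusted p = 0.778) and Nr4a3 (-0.45 ± 0.29, adjusted p = 0.309) were not called there. Nor were the Egr1 relatives Egr2, Egr3 and Egr4.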
